A study of Homo sapiens with 74 samples.

Results

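RN7SK, RMRP, RPPH1, RN7SL1, RN7SL2, VTRNA1-1, VTRNA1-2, VTRNA1-3, RNY1 and RNY3 are small non-coding RNA genes that RNA polymerase III transcribes. The 10 genes were chosen by name out of 62663 annotated genes (GENCODE 44, hg38), and a gene was called in a peak list when a peak overlapped it or lay within 500 bp of it. Cut&Run cuts and releases the DNA next to a protein that an antibody has bound. Here HEK293T cells, a transformed human embryonic kidney line, were transfected with a plasmid that expressed 1 zinc-finger protein (ZFP) with a C-terminal V5 tag under an EF1-alpha promoter, and were processed after 48 h. The data were 72 peak lists with 92122 peaks, from 36 ZFPs in biological replicates 1 and 2. The paper reports Cut&Run results for ZFPs whose replicates passed a reproducibility check. Its summary of the ZFPs gives no number of Cut&Run target genes for CPSF4, MBNL1, SNRPC, TRIM55, ZC3H3 and ZMAT5. These ZFPs may therefore lie outside the set that passed, and the ZFPs used here may not be that set. The lists of these ZFPs are used here. CPSF4, MBNL1 and SNRPC each had 3 of the 10 genes called in both replicates, and TRIM55, ZC3H3 and ZMAT5 had 0. No setting left all of these ZFPs out together. Each list gives peaks over the V5 mock IP of un-transfected cells from the same batch, so the ZFPs were measured as overexpressed, tagged proteins in a mixed transfected population, and the control cells carried no plasmid. The lists held between 15 and 8702 peaks (median 631), and this number depends on depth as well as on how much a protein bound. Read totals and batches of single libraries are not given in the sources used.

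As a check of the labels, the gene of the transfected ZFP held an exon peak in both replicates for all ZFPs except MBNL1, TRIM55, ZMAT5 and the libraries labelled U2AF1. Replicate 2 of ZC3H3 stood apart by its length, with 15 peaks against 1315 in replicate 1, and TRIM55 (114 and 3244 peaks) and ZMAT5 (95 and 2191 peaks) were also unequal. Replicate 1 of MBNL1 stood apart by its folds, with a median of 15.88 over its 141 peaks against 5.29 in the next list, so its peaks at these genes (9.95 to 17.9) ranked between 47.5% and 58.9% from the top of that list. ZC3H3, TRIM55 and ZMAT5 did not have any of the 10 genes called in both replicates, and U2AF1 had none in either. Without MBNL1, TRIM55, ZMAT5 and U2AF1, the calls counted below fell from 183 to 170 and the ZFPs with a gene called in both replicates from 20 to 19.

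RNA polymerase III makes short, very abundant RNAs and ends transcription at runs of T. Its genes use different promoters. RN7SK, RMRP, RPPH1 and the Y RNA genes rely on elements upstream of the gene, among them a TATA box, which SNAPc and a special TFIIIB recognise. The 7SL and vault RNA genes also carry elements inside the gene, which TFIIIC reads, as it does in tRNA genes. RN7SK encodes 7SK RNA, which holds the elongation factor P-TEFb in an inactive complex. RMRP and RPPH1 encode the RNA subunits of RNase MRP and RNase P, which process ribosomal RNA and tRNA precursors. RN7SL1 and RN7SL2 encode 7SL RNA of the signal recognition particle, which targets nascent proteins to the endoplasmic reticulum. Vault RNAs are components of vault particles, and Y RNAs bind the Ro60 protein.

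The upstream regions of RN7SK, RMRP and RPPH1, the frequently called genes with external promoters, are shown because peaks over these genes could lie on the promoter or on the transcribed part. Each runs from 250 bases before the gene start to 20 bases into the gene, 5′ to 3′ on the gene's strand (hg38), with matches to ATTTGCAT (octamer), TATAA (TATA box) and CCCANNATG (core of the Staf/ZNF143 site), on either strand, in capitals.
RN7SK (chr6:52995371-52995640, plus strand): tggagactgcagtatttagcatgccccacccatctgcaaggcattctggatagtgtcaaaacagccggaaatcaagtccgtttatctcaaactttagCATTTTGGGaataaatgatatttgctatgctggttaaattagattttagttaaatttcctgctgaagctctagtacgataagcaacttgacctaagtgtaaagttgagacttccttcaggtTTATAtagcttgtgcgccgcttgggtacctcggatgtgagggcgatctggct
RMRP (chr9:35657998-35658267, minus strand): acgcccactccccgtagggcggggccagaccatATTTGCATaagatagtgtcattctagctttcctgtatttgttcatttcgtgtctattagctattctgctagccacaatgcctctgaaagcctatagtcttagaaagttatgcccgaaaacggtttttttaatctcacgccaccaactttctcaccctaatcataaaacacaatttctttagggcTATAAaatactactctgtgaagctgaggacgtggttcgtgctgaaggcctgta
RPPH1 (chr14:20343388-20343657, minus strand): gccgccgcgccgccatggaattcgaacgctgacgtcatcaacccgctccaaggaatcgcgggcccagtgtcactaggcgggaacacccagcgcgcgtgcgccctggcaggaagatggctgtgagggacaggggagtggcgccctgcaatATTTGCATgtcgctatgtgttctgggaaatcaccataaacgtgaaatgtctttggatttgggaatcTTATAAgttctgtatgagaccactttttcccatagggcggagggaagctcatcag

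Counted with the first base of the gene as 0, TATAA began at base -33 of RMRP and -34 of RPPH1, and its reverse complement at base -32 of RN7SK. In RPPH1 it overlapped a match on the other strand that began at -35. The octamer began at -217 in RMRP and at -101 in RPPH1, and the Staf core at -153 on the other strand of RN7SK. These letters were not particular to the frequently called genes. RNY3, called in none of the lists, held all 3 (TATAA from -28, the octamer from -242 on the other strand, the Staf core from -232), RNY1 held the Staf core from -211, VTRNA1-1 and VTRNA1-2 held TATAA from -21, and RN7SL1 held the Staf core from -155. In all, 3 of the 10 genes held the octamer, 6 TATAA and 4 the Staf core. In windows from 250 bases before to 150 bases after the start of all 62663 genes, 3.22% held the octamer, 35.1% TATAA and 6.44% the Staf core. A match is a run of letters and does not show that a factor binds.

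The internal B box letters GTTCNANNC (12.1% of all gene starts) were found inside VTRNA1-1, VTRNA1-2, VTRNA1-3 and RNY1, and not in the windows of RN7SL1 and RN7SL2. TGGCNNAG (A box, 26.0%) matched only RN7SL1, from base -63, outside the gene. This search allowed only G as the second letter. VTRNA1-1, VTRNA1-2 and VTRNA1-3 each hold TAGCTCAG inside the gene, which differs from the searched letters only by an A there. The missing match therefore does not show that the vault RNA genes lack an A box. These genes are printed whole, with the B box in capitals, because they hold the B box letters and were called in few lists.
VTRNA1-1 (chr5:140711275-140711373, plus strand): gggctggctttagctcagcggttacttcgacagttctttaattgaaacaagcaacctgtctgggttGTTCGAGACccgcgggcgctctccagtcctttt
VTRNA1-2 (chr5:140718925-140719013, plus strand): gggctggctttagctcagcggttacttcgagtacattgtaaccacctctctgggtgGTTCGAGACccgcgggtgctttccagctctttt
VTRNA1-3 (chr5:140726158-140726246, plus strand): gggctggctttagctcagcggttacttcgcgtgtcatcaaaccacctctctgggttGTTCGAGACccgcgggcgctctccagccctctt

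Peaks at these genes were concentrated on 5 of them. RN7SK was called in 43 of 72 lists, RN7SL1 in 41, RN7SL2 in 35, and RMRP and RPPH1 in 29 each, with summits inside the transcribed part in 170 of these 177 cases. The remaining 5 genes, the 3 vault RNA and the 2 Y RNA genes, gave 6 calls together, none repeated in both replicates of a ZFP. In all, 183 of 720 pairs of a gene and a list were called, and 54 of 72 lists held at least 1 of the 10 genes. RN7SK, RMRP, RPPH1, RN7SL1 and RN7SL2 were called in both replicates of at least 1 ZFP, 5 of 10 genes, against 1.36% of the 8729 annotated genes of the same lengths (89 to 333 bp), 8.99% of all annotated genes and 11.5% of protein-coding gene starts. RN7SK, RN7SL1 and RN7SL2 were called in both replicates of 10 or more ZFPs, as were 0.275% of genes of these lengths (24 genes). These 24 included RN7SK, RN7SL1, RN7SL2 and a second GENCODE entry for the RN7SK locus. By annotated type they were miRNA (7), misc_RNA (7), snRNA (5), rRNA (4) and unprocessed pseudogene (1). The miRNA entries included MIR3648-1, MIR3648-2 and MIR6724-1 to MIR6724-4. The rRNA entries were RNA5-8SN1, RNA5-8SN2, RNA5-8SN3 and 5_8S_rRNA, and the pseudogene was MTATP8P1. Besides RN7SK, the snRNA entries were RNU1-2, RNU1-27P, RNU1-4 and RNVU1-29. Whether reads at these entries could be assigned to 1 copy was not tested. The 10 small RNA genes were proposed with earlier results of these data known, so these shares are a description and carry no test.

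**Figure D1:**
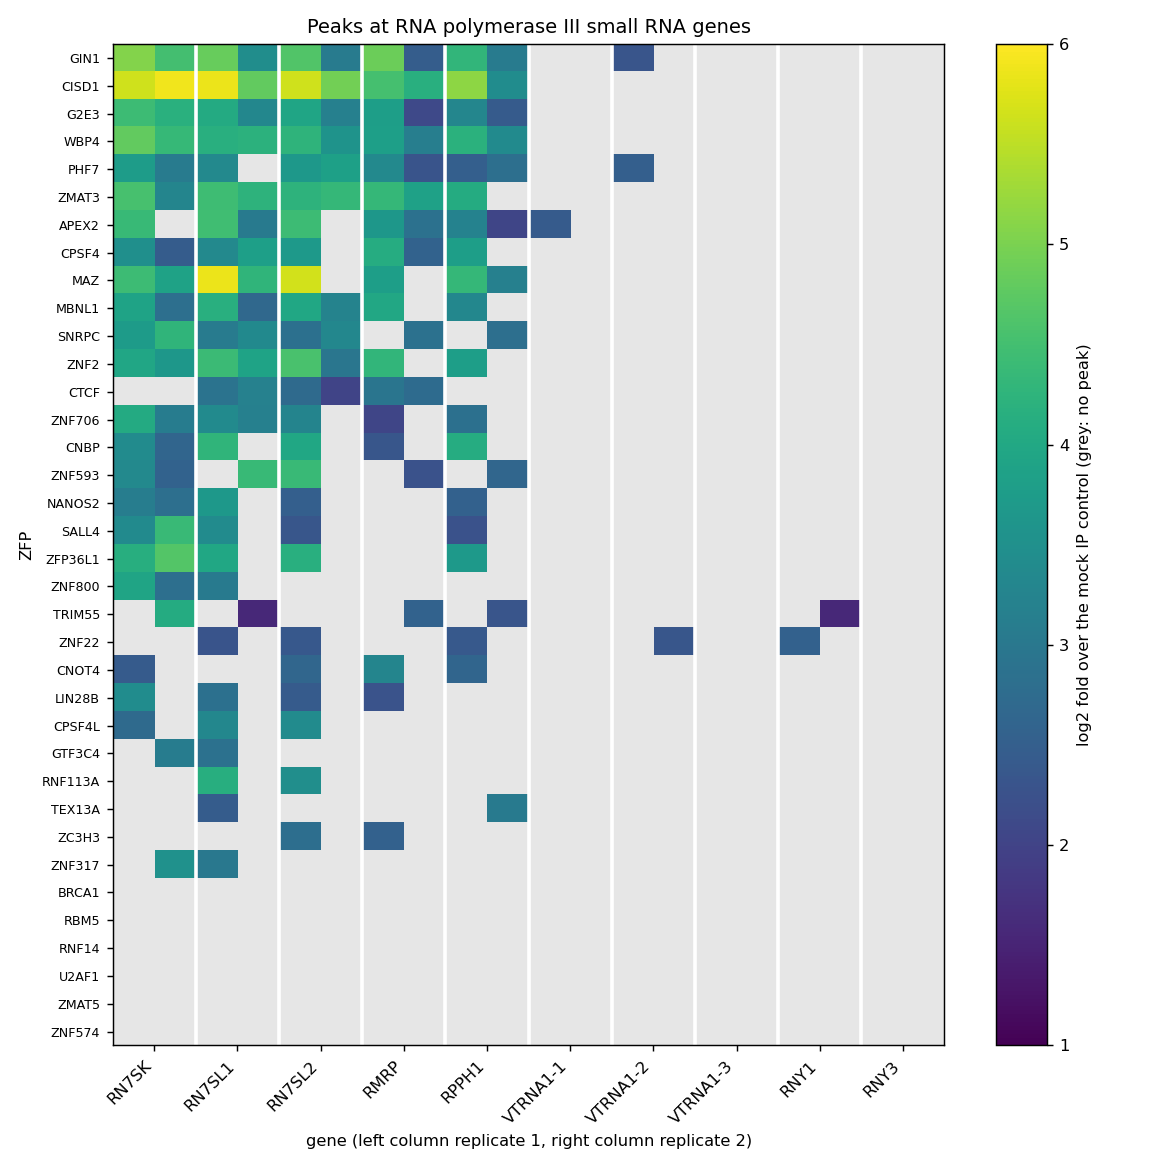
Log2 fold over the mock IP control (colour) of the peak at each of the 10 genes (columns, replicate 1 left and replicate 2 right of each pair) for the 36 ZFPs (rows, ordered by the number of genes called in both replicates); grey means that no peak was called. The columns of RN7SK, RN7SL1, RN7SL2, RMRP and RPPH1 hold 177 coloured cells, while the vault and Y RNA genes hold 6 coloured cells, and 6 ZFPs at the bottom have none.

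RN7SK (snRNA, ENSG00000283293.1, chr6:52995621-52995948, plus strand, 328 bp) was called in both replicates of 18 ZFPs, in replicate 1 only of 4 and in replicate 2 only of 3. The fold over the control, as the peak caller gave it, ranged from 5.42 to 59.6 with a median of 13.6 over the 43 lists. CISD1, an iron-sulphur protein of the mitochondrial outer membrane, had the highest folds in both replicates, 49.6 and 59.6, a mean of 54.6 ± 7.04 (SD, n = 2). Both values of CISD1 lay above those of the next ZFP, GIN1, with 33.8 and 22.7 (28.3 ± 7.84). Folds of different ZFPs may rest on mock IPs of different batches and on different depths. The order of ZFPs by fold, here and below, is therefore a description and was not tested. WBP4, a spliceosome-associated protein, had 27.96 and 20.4 (24.2 ± 5.31). G2E3, an E3 ubiquitin ligase, had 21.6 and 18.1 (19.8 ± 2.50). ZFP36L1, which binds AU-rich elements of mRNAs, had 17.5 and 25.4 (21.5 ± 5.61). The ranges of WBP4, G2E3 and ZFP36L1 overlapped, so their order is not separable from the spread between replicates. Within its own list the RN7SK peak stood high by fold, at a median position of 2.33% from the top.

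RN7SL1 (misc_RNA, ENSG00000276168.1, chr14:49586580-49586878, plus strand, 299 bp) had a peak in both replicates of 13 ZFPs, in replicate 1 only of 13 and in replicate 2 only of 2. Its fold ranged from 2.996 to 58.1 with a median of 10.9 over 41 lists. CISD1 had 58.1 and 27.8 (43.0 ± 21.4, SD, n = 2). MAZ, a GC-box transcription factor, had 57.7 and 19.4 (38.6 ± 27.1). Both ZFPs had replicates that differed by 2.09-fold (CISD1) and 2.97-fold (MAZ), so neither can be placed above the other. ZMAT3, an RNA-binding target of p53, had 21.7 and 18.7 (20.2 ± 2.14). WBP4 had 17.7 and 18.5 (18.1 ± 0.589), just under the lower value of ZMAT3, and ZNF2 had 21.2 and 14.9 (18.1 ± 4.45), a range that spanned WBP4.

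RN7SL2 (misc_RNA, ENSG00000274012.1, chr14:49862550-49862849, minus strand, 300 bp) was called in both replicates of 10 ZFPs and in replicate 1 only of 15, and never in replicate 2 alone. Its folds ran from 4.07 to 50.5 (median 11.8, 35 lists). CISD1 had 49.8 and 30.7 (40.2 ± 13.5, SD, n = 2), above ZMAT3 with 18.9 and 20.2 (19.5 ± 0.912). PHF7 had 12.6 and 14.3 (13.5 ± 1.16). WBP4 (19.01 and 11.8) and MBNL1 (15.8 and 9.48), a splicing regulator, spanned wider ranges that overlapped PHF7. RN7SL2 and RN7SL1 differed at 5 of 300 aligned positions (98.3% identity), and the sources do not say how reads that fit both were assigned. The calls of these 2 genes are therefore uncertain with respect to each other. RN7SL1 and RN7SL2 shared 31 lists, 75.6% of the lists of RN7SL1 and 88.6% of those of RN7SL2.

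RMRP (ribozyme, ENSG00000277027.1, chr9:35657754-35658017, minus strand, 264 bp) was called in both replicates of 9 ZFPs, in replicate 1 only of 8 and in replicate 2 only of 3, and with only the 200 strongest peaks of each list the 9 became 4. Its fold ranged from 4.11 to 29.5 with a median of 8.83 over 29 lists (13.97 without replicate 2). CISD1 had 22.9 and 17.9 (20.4 ± 3.54, SD, n = 2), and ZMAT3 had 20.01 and 14.5 (17.2 ± 3.91), so the replicates of the 2 ZFPs overlapped. The highest RMRP fold of any list was 29.5, in replicate 1 of GIN1, whose replicate 2 had 5.55, a 5.31-fold difference. WBP4 (14.1 and 8.83), APEX2, an endonuclease of DNA repair (12.6 and 7.31), and CTCF (7.65 and 6.68) followed by the lower replicate. The replicate 2 peak of APEX2 and both peaks of CTCF had the summit outside RMRP, unlike those of WBP4.

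RPPH1 (ribozyme, ENSG00000277209.1, chr14:20343075-20343407, minus strand, 333 bp) was called in both replicates of 7 ZFPs (4 with only the 200 strongest peaks of each list), in replicate 1 only of 11 and in replicate 2 only of 4. Its fold ranged from 4.10 to 35.5 with a median of 9.01 over 29 lists. CISD1 had 35.5 and 10.8 (23.2 ± 17.5, SD, n = 2). WBP4 had 18.4 and 10.5 (14.5 ± 5.56), and MAZ 20.03 and 9.01 (14.5 ± 7.79). GIN1 (19.5 and 8.46) lay in the same range, and the range of CISD1 overlapped those of WBP4, MAZ and GIN1. PHF7 (5.68 and 7.08) lay below these 4 ZFPs in both replicates.

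Folds differed between replicates of the same ZFP. Over 57 pairs of a gene and a ZFP with a peak in both replicates, the higher fold was a median of 1.67 times the lower (up to 5.31 times), and replicate 1 was higher in 45 of the 57 pairs. Replicate 1 also had more calls than replicate 2 (112 against 71), beside more peaks in total (54552 against 37570). RN7SK had nearly as many lists in replicate 2 as in replicate 1 (21 and 22), though its fold was higher in replicate 1 in 14 of 18 pairs. The part of list length and batch in this difference was not tested.

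**Figure D2:**
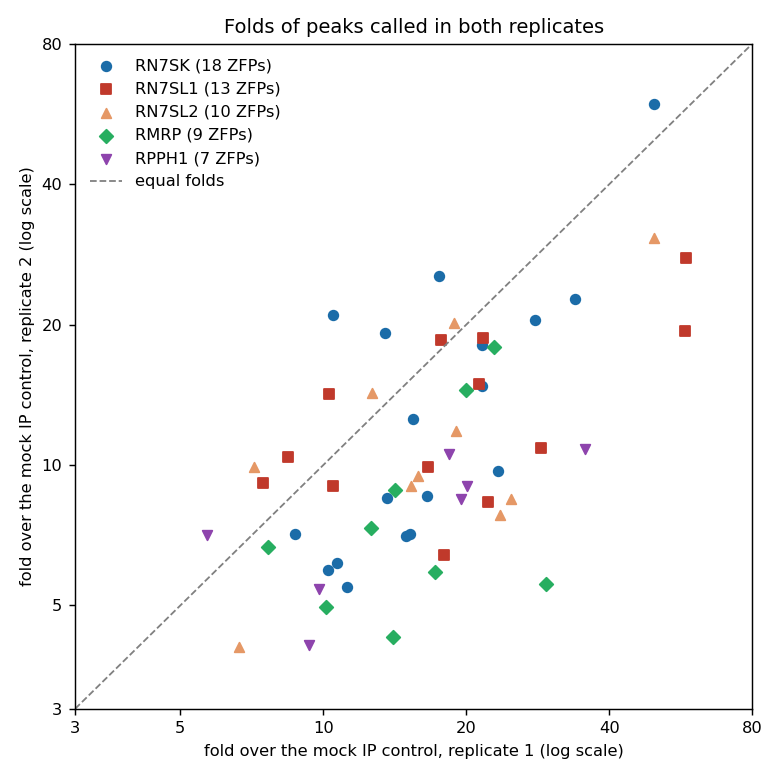
Fold over the mock IP control in replicate 2 against replicate 1 (both axes log scale) for the 57 pairs of a gene and a ZFP with a peak in both replicates, with the line of equal folds dashed. Most points, 45 of 57, lie below the line, on the side of replicate 1.

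Of 72 lists, 18 held all 5 frequently called genes, 19 held none, and the other lists held between 1 and 4 of them. CISD1, G2E3, GIN1 and WBP4 had all 5 in both replicates, PHF7 and ZMAT3 had 4 of them, and APEX2, CPSF4, CTCF, MAZ, MBNL1, SNRPC and ZNF2 had 3. In 16 ZFPs none of the 5 was called in both replicates, and in 6 ZFPs (BRCA1, RBM5, RNF14, U2AF1, ZMAT5 and ZNF574) none of the 10 genes was called in either. RN7SK was the only one of the 5 called in both replicates of CNBP, NANOS2, SALL4, ZFP36L1, ZNF593 and ZNF800. CTCF was the reverse, with RN7SL1, RN7SL2 and RMRP in both lists and RN7SK in neither.

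The 10 lists of over 3000 peaks held between 3 and 6 of the 10 genes (median 5), and the 14 lists of up to 300 peaks held between 0 and 5 (median 1). The 34 lists of over 300 and up to 1000 peaks had a median of 1.5, and the 14 lists of over 1000 and up to 3000 peaks a median of 3. Single lists departed from these medians, as the following examples, chosen after their values were seen, show. WBP4, with 509 and 452 peaks, had 5 genes in each replicate, whereas replicate 1 of ZNF22, with 6125 peaks, had 4 and no peak at RN7SK, and replicate 2 of ZMAT5, with 2191 peaks, had none. MBNL1, with 141 and 289 peaks, had 5 and 3.

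**Figure D3:**
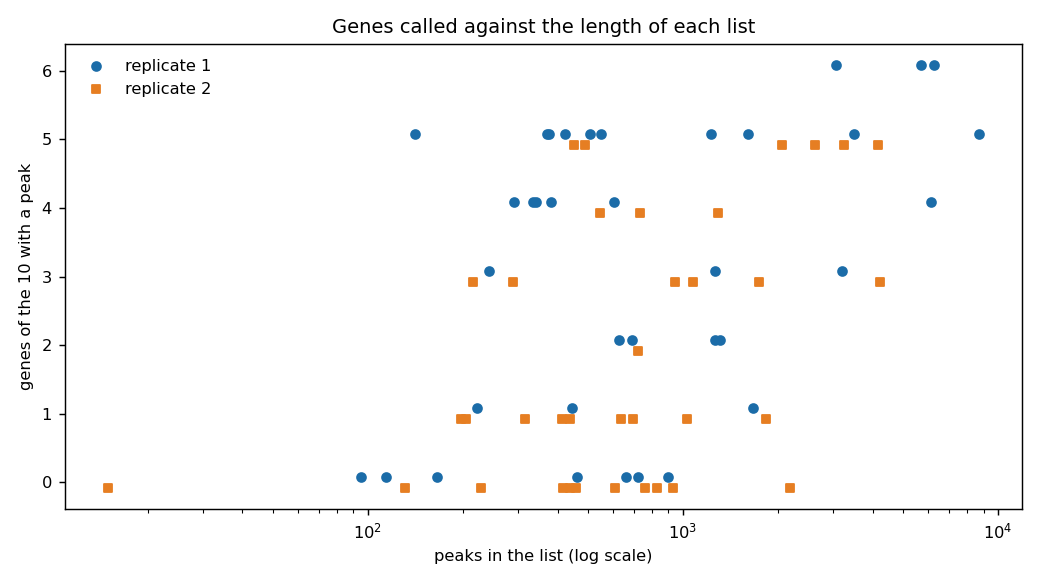
Number of the 10 genes with a peak against the number of peaks in each of the 72 lists (log scale), with replicate 1 as circles and replicate 2 as squares, drawn slightly apart. The 10 lists of over 3000 peaks hold between 3 and 6 of the genes, and shorter lists hold between 0 and 5.

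Most peaks lay over the transcribed part of the genes. Of 177 best peaks at the 5 genes, 170 had the summit inside the gene, 141 (79.7%) reached no more than 20 bp past either end of the gene, and 87 (49.2%) had both edges within 20 bp of the 2 gene ends. The median peak was 309 bp wide. At 183 peaks called at other annotated genes of 264 to 333 bp, leaving out genes that overlap these, 3 (1.64%) had both edges within 20 bp, and among the 36 of these with the summit inside the gene the number was also 3 (8.33%). For summits inside the gene, the share of peaks that reached no more than 20 bp past either end was 82.4% at the 5 genes and 58.3% (21 of 36) at the other genes.

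By gene, both edges matched in 28 of 41 peaks at RN7SL1, 26 of 35 at RN7SL2, 16 of 29 at RMRP, 9 of 29 at RPPH1 and 8 of 43 at RN7SK. In RN7SK and RPPH1 the upstream edge varied more. At RN7SK the upstream edge lay between 2 bp before and 169 bp after the gene start (median 47 bp after it). The downstream edge was within 20 bp of the gene end in 24 of 43 peaks. Its most frequent place, 22 bp past the end, was just beyond that limit. Of the 43 peaks, 38 ended within 10 bp of that place, so the RN7SK counts depend on the limit. At RPPH1 the upstream edge was a median of 33 bp inside the gene and the downstream edge was within 20 bp in 24 of 29 peaks.

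Bases at both ends of RN7SK, RMRP and RPPH1 and at the 5′ ends of RN7SL1 and RN7SL2 are shown because the edges recurred there to the base. Each line runs from 30 bases outside to 30 bases inside an end, with the annotated gene in capitals (hg38).
RN7SK 5′ end (chr6:52995591-52995650, plus strand): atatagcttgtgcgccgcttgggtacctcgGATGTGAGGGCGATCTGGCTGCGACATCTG
RN7SK 3′ end (chr6:52995919-52995978, plus strand): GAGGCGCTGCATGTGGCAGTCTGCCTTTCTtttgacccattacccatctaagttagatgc
RMRP 5′ end (chr9:35657988-35658047, minus strand): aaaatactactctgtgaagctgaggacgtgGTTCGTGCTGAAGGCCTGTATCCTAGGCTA
RMRP 3′ end (chr9:35657724-35657783, minus strand): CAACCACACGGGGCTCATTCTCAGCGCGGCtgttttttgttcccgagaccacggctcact
RPPH1 5′ end (chr14:20343378-20343437, minus strand): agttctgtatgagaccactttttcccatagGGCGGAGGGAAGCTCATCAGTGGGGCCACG
RPPH1 3′ end (chr14:20343045-20343104, minus strand): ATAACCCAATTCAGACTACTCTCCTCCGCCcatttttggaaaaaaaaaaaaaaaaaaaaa
RN7SL1 5′ end (chr14:49586550-49586609, plus strand): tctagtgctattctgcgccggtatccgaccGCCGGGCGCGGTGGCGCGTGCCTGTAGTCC
RN7SL2 5′ end (chr14:49862820-49862879, minus strand): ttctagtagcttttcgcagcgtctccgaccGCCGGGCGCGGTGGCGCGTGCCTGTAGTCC

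The most frequent 5′ edge was the first base of RN7SL1 (18 of 41 peaks, 32 within 2 bp of it), 1 base before RN7SK (10 of 43), 11 bases before RN7SL2 (10 of 35), 13 before RMRP (7 of 29) and 14 before RPPH1 (5 of 29). The most frequent 3′ edge was the last base of RN7SL2 (18 of 35), 3 bases past RMRP (16 of 29), 4 past RPPH1 (13 of 29), 12 past RN7SL1 (12 of 41) and 22 past RN7SK (8 of 43). In RN7SK a run of 4 T begins at the last base of the gene, and in RMRP a run of 6 T and in RPPH1 a run of 5 T begin at the third base past it. These most frequent edges were also read along the chromosome instead of the gene. The most frequent edge at the lower coordinate lay between 0 and 4 bp outside the gene in all 5. The most frequent edge at the higher coordinate lay between 11 and 22 bp outside, on either strand.

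Summits ranged over much of each gene, but some positions recurred. The RPPH1 summit lay at 161 bp in replicate 2 of TEX13A and replicate 1 of CISD1, CNBP, CPSF4, MAZ, WBP4, ZMAT3 and ZNF2. Among summits inside the gene, the median distance from the gene start was 164 bp at RN7SK (86 to 304), 161 bp at RPPH1 (37 to 320), 200 bp at RMRP (70 to 251), 78 bp at RN7SL1 (11 to 265) and 73 bp at RN7SL2 (2 to 279). Within a ZFP, the summits of the 2 replicates lay a median of 62 bp apart over the 57 pairs, from 21 bp at RN7SL1 to 150 bp at RMRP.

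**Figure D4:**
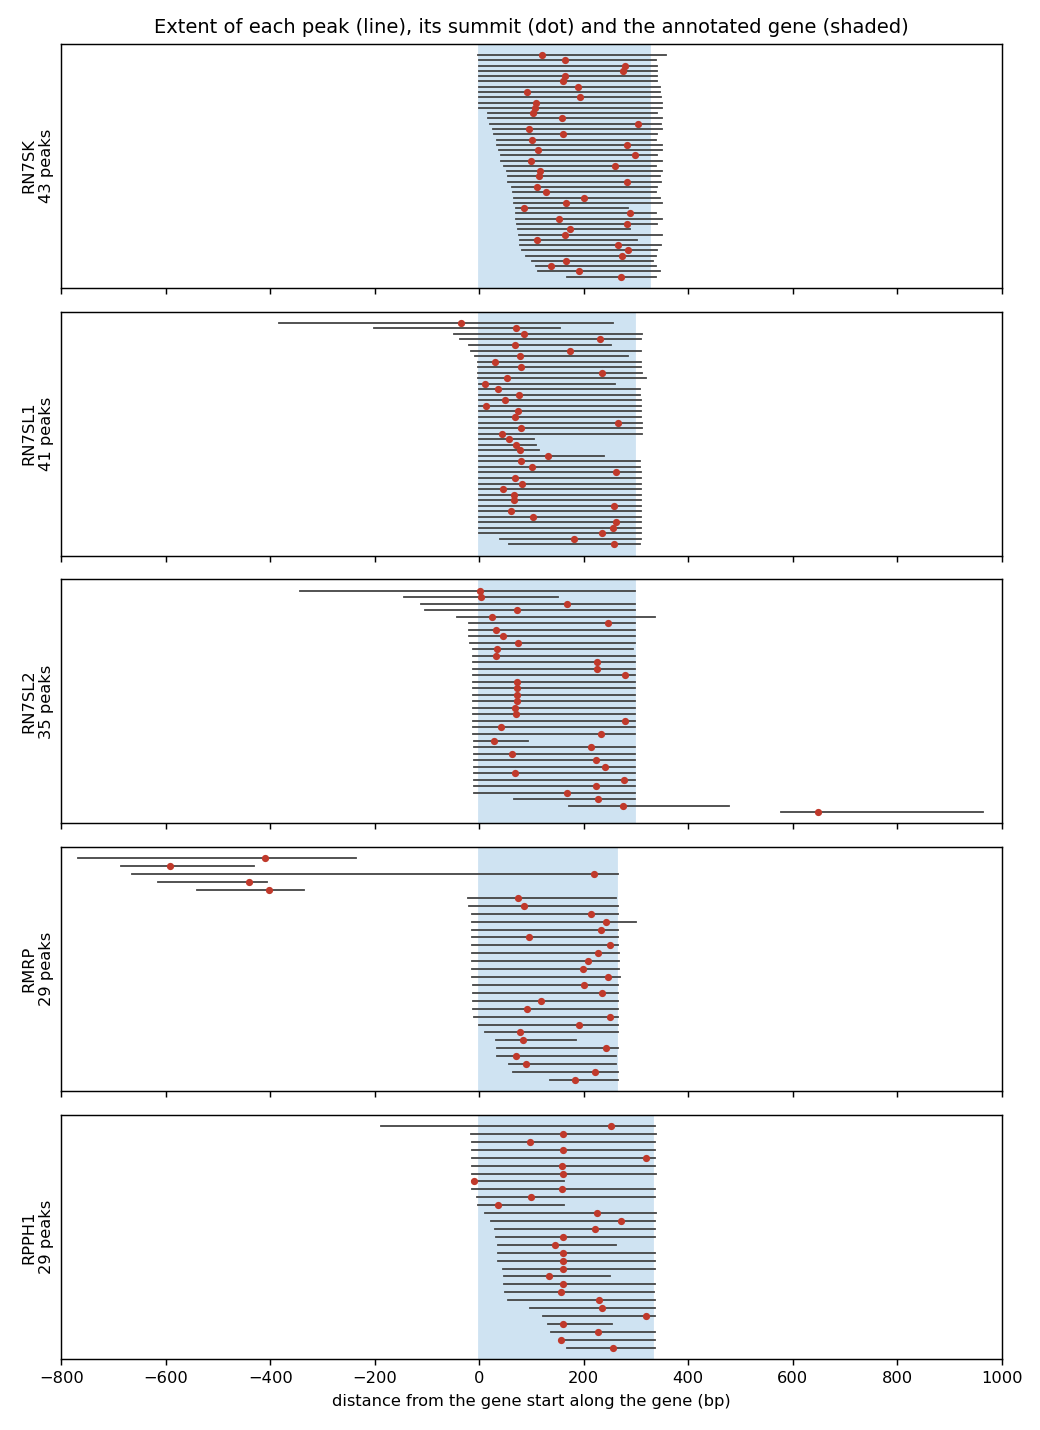
Extent of the peak at each gene in each list that called it (line), with its summit (dot), against the distance from the gene start along the gene in bp, and the annotated gene shaded, for RN7SK (43 peaks), RN7SL1 (41), RN7SL2 (35), RMRP (29) and RPPH1 (29). Lines end close to the shaded edges at RN7SL1 and RN7SL2, while at RN7SK and RPPH1 the left ends scatter and the right ends line up; 4 RMRP peaks lie upstream of the gene.

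In 7 of the 177 cases the summit lay outside the gene, 4 of them at RMRP. Each of RN7SK, RMRP, RPPH1 and RN7SL1 has the start of a protein-coding transcript on the opposite strand close upstream: GSTA4 337 bp, CCDC107 273 bp, PARP2 208 bp and RPS29 200 bp before the gene start. RN7SL1 also lies inside the annotated RPS29 gene, since other RPS29 transcripts start on the far side of it. No peak chosen for RN7SK or RPPH1 covered that start, and 2 of 29 at RMRP (replicate 2 of APEX2 and of CISD1) and 2 of 41 at RN7SL1 (replicate 2 of TRIM55 and replicate 1 of ZNF22) did. NEMF, the nearest coding start to RN7SL2, is 10028 bp away. At RMRP the summits of CTCF, the insulator-binding protein, lay at -591 and -441 bp in replicates 1 and 2, and those of replicate 2 of APEX2 and replicate 1 of ZC3H3 at -409 and -403 bp. CTCF is thus a ZFP whose RMRP calls had no summit in the gene, in contrast with CISD1, ZMAT3 and WBP4. Replicate 1 of ZNF22 gave 2 further exceptions, with summits at -34 bp from RN7SL1 and 648 bp after the start of RN7SL2, past its end, and replicate 2 of APEX2 had an RPPH1 summit at -9 bp.

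The vault RNA and Y RNA genes (89 to 113 bp) had few peaks and low folds. VTRNA1-1 (chr5:140711275-140711373) had 1 peak, in replicate 1 of APEX2, with a fold of 5.44 and a summit at -214 bp. VTRNA1-2 (chr5:140718925-140719013) had 3, in replicate 1 of GIN1 (4.97), replicate 1 of PHF7 (5.74) and replicate 2 of ZNF22 (5.08), all with the summit outside the gene. RNY1 (chr7:148987136-148987248) had 2, in replicate 2 of TRIM55 with a fold of 2.99 and the summit 44 bp into the gene, and in replicate 1 of ZNF22 with 5.85 and the summit at -549 bp. VTRNA1-3 (chr5:140726158-140726246) and RNY3 (chr7:148983755-148983856) had none in 72 lists. The 3 vault genes lie on the plus strand, 10828 to 25711 bp past the start of ZMAT2, their nearest coding start, and RNY1 and RNY3 lie 41257 and 44750 bp from that of PDIA4. An absent call means that no peak passed the authors' threshold at the depth of that library, whose exact read total was not known.

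GTF3C4 is a subunit of TFIIIC, which reads the internal elements of the 7SL and vault RNA genes and is not needed at genes with external promoters such as RN7SK. Its 2 lists, of 446 and 439 peaks, held RN7SL1 in replicate 1 (fold 7.24, summit 58 bp into the gene) and RN7SK in replicate 2 (fold 8.60, summit 164 bp into the gene). No gene of the 10 was called in both of its replicates, and 20 of the 36 ZFPs, with lists of all lengths, had at least 1. Among the 34 lists of over 300 and up to 1000 peaks, 23 held at least 1 of the 10 genes, with a median of 1.5, so that 1 gene per list was near the middle of this range. Of 27 further annotated RNA polymerase III genes, the GTF3C4 lists held 1 in replicate 1 (RNA5S10, fold 2.90) and 0 in replicate 2. The summit of the RNA5S10 peak lay at -101 bp, outside that gene. The GTF3C4 lists held 9 and 7 of the 8729 genes of the members' lengths, the member calls included.

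Among those 27 further genes (5S ribosomal RNA, U6, U6atac, Y, vault, BC200 and 7SL genes), 14 (51.9%) were called in both replicates of at least 1 ZFP, against 1.36% of genes of the members' lengths and 8.99% of all annotated genes, and 13 of them were 5S ribosomal RNA genes. These were RNA5S2 to RNA5S8, RNA5S10 to RNA5S14 and RNA5S17, which stand in 1 tandem array on chromosome 1 and are known as near-identical repeats, so that peaks there cannot be assigned to 1 copy with certainty. RNA5S8 had the most, with 17 lists and both replicates of G2E3, GIN1, ZNF574 and ZNF706 (median fold 3.65 over its lists). Of these ZFPs, G2E3 alone had the RNA5S8 summit inside the gene in both replicates, GIN1 and ZNF706 had it inside in 1 replicate, and ZNF574 in neither. RNA5S10, RNA5S11, RNA5S13 and RNA5S14 had 3 ZFPs each. ZNF574 was called in both replicates at 10 of the 5S genes and at none of the 10 small RNA genes, but all 25 of its peaks at 5S genes had the summit outside the gene. Of 174 peaks at 5S genes in all lists, 92 had the summit inside. Among these, replicate 2 of TRIM55 had the summit inside every gene from RNA5S1 to RNA5S17, with folds from 5.89 to 17.7. That list held 3244 peaks, and replicate 1 of TRIM55, with 114 peaks, was called at none of these genes. With the summit required inside the gene, the 14 further genes became 7.

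The remaining gene called in both replicates was RN7SL3, another 7SL gene (chr14:49853616-49853914), 97.7% identical to RN7SL1 and 96.0% to RN7SL2. It was called in 10 lists, with a median fold of 6.37, and in both replicates of APEX2 and CISD1. CISD1 had folds of 10.9 and 8.23 there, below its 58.1 and 27.8 at RN7SL1 and its 49.8 and 30.7 at RN7SL2. The annotated copies are read against all genes of the members' lengths, of which 4.38% (382 of 8729) had a peak in any list and 1.36% in both replicates of a ZFP. Of 293 RN7SK copies named RN7SKP, 10 (3.41%) had a peak in any list and 0 in both replicates of a ZFP. Of 677 copies of 7SL, 11 (1.62%) had one in any list and 1 (RN7SL521P, in PHF7) in both, and of 53 Y RNA copies 2 (3.77%) and 0.

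The protein-coding genes of the same machinery were read at their starts. Of 31 genes for subunits of RNA polymerase III, TFIIIA, TFIIIB, TFIIIC and SNAPc, the repressor MAF1 and the La protein, 21 had a peak within 500 bp of the gene start in at least 1 list, against 43.5% of all protein-coding gene starts, and 6 had one in both replicates of a ZFP, against 11.5%. GTF3C1, a DNA-binding subunit of TFIIIC, was the only gene called in both replicates of 3 ZFPs, APEX2, GIN1 and ZNF22.

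The pattern of calls over the 72 lists that was most like that of RN7SK, by the share of lists in common among lists with either call (Jaccard index), was that of the second GENCODE entry for the same locus, 7SK (1.0). Next came RN7SL1 (0.647, 33 shared lists) and RNU1-27P (0.636, 28 of its 29 lists shared), a gene annotated as a copy of U1 snRNA. These values describe the lists and share their depth.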

How the data were processed

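Cut&Run peak lists of 36 ZFPs (2 replicates each) in HEK293T cells were used, mapped to ZFP and replicate by their titles. No list of the V5 mock IP samples was used. In the authors' pipeline, reads were trimmed (Trimmomatic 0.36), mapped to hg38 (bowtie2 2.3.5.1, fragment length 10 to 700 bp) and deduplicated (Picard 0.1.8), and MACS2 2.2.7.1 called narrow peaks in each library over its same-batch mock IP at an FDR of 0.05. The deposited fold is the ratio of signal to control at the summit, and the −log10 q-value and summit are also those the authors deposited. A peak within 500 bp of a gene (GENCODE 44) was a call, and the peak of highest fold was used per gene and list. tRNA genes came from RefSeq (GRCh38.p14). Values were computed with Python 3.11.15, numpy 2.4.6 and pandas 2.3.3, and the call rule was checked on simulated data (3000 of 3000 calls as a plain search gave). No tests were run. The genes named were the 10 members, their nearest coding starts and further RNA polymerase III genes called in both replicates of a ZFP. Machinery genes called so in at least 3 ZFPs and the 3 small RNA genes of most similar pattern were also named. Per member, up to 5 ZFPs of highest fold in both replicates were named. Other ZFPs, and genes of like length called in both replicates of 10 or more ZFPs, were named after their values were seen. Members and lists were chosen with earlier results of these data known. Windows, q thresholds, list sizes and replicates were varied. The 3′ end sequences of RN7SL1 and RN7SL2 are not reported here.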

Additional observations from a re-analysis of the deposited data

How the results depend on the processing

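No paired analysis was possible because no result comes from a test. Calls at the 10 genes numbered 183. They numbered between 156 (only the 200 peaks of highest fold of each list) and 183 (1000 bp window) under the other windows, q thresholds and list choices, and 171 with the summit inside the gene, an alternative chosen after seeing the data. The 20 ZFPs with a gene called in both replicates became 18 to 20 under those settings. With 1 replicate left out, a call in the other list counts, so calls fell to between 71 and 112, calls of GTF3C4 from 2 to 1, and the ZFPs with a call rose to between 25 and 29. The median fold over all genes (10.6) and the median summit (157 bp) moved by less than the spread between replicates, but the median fold at RMRP rose from 8.83 to 13.97 without replicate 2, and at RN7SL1 from 10.9 to 15.8 with only ZFPs called in both replicates. Among the background values, genes of like length called in both replicates fell from 119 to 75 with no window and to 55 with the summit inside the gene, and numbered between 274 and 295 with 1 replicate left out. The share of all annotated genes fell from 8.99% to 4.25% at q of at most 0.001 and was between 21.7% and 26.9% with 1 replicate left out. Further RNA polymerase III genes called fell from 14 to 7 with no window, also to 7 with the summit inside the gene, and numbered between 21 and 22 with 1 replicate left out. With only the 200 strongest peaks, ZFPs called in both replicates fell from 9 to 4 at RMRP and from 7 to 4 at RPPH1. Without MBNL1, TRIM55, ZMAT5 and the libraries labelled U2AF1, calls were 170 and ZFPs 19. Depth limits every absent call, and each ZFP has 2 replicates.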

Other observations

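tRNA genes, the most numerous RNA polymerase III genes, were counted after the other values had been seen. Of 443 RefSeq tRNA genes, 157 (35.4%) had a peak within 500 bp in at least 1 list, against 4.38% of genes of the lengths of the 10 small RNA genes, and 41 (9.26%) in both replicates of at least 1 ZFP, against 1.36% of genes of those lengths and 8.99% of all annotated genes. TRG-TCC2-5 and TRE-CTC1-5 were called for the most ZFPs, 10 each, among them APEX2, CISD1, CTCF, G2E3 and GIN1. The tRNA genes at the top of that order come in near-identical copies, so a read may not be assigned to 1 copy. Under the 500 bp rule a single peak can also call neighbouring tRNA genes. The compared genes were chosen by the lengths of the 10 small RNA genes and not by those of tRNA genes. Summit places at tRNA genes are not given here, so the shares above are a description. APEX2 had 25 tRNA genes in both replicates, G2E3 22 and CISD1 21, while the lists of GTF3C4, the TFIIIC subunit, held 0 of 443 in either replicate, as did those of 9 other ZFPs (CPSF4L, NANOS2, RBM5, RNF14, SALL4, ZFP36L1, ZNF2, ZNF317 and ZNF574). The GTF3C4 lists held 9 and 7 of the 8729 genes of those lengths.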
